A study of Mus musculus with 26 samples.

Results

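Nodal and Activin signal through the same receptors and SMAD proteins, and 10 genes of this pathway were chosen by name: the ligand Nodal, its feedback antagonists Lefty1 and Lefty2, the Nodal co-receptor Tdgf1 (Cripto), the type I and type II receptors Acvr1b (ALK4) and Acvr2b, the signal transducers Smad2 and Smad3, the inhibitory Smad7, and the nuclear SMAD partner Foxh1. Of these, 9 had both an expression value and a promoter bait, among 15646 genes with an expression value and 19022 baited fragments. Foxh1 appeared by name in neither kind of file. Its annotated start was at 76669948 of chromosome 15 in GENCODE and at 76671614 in RefSeq, on fragments baited under the names Cyhr1 and Ppp1r16a, and no value was assigned to it.

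Ligand binding brings type II and type I receptors together, and Nodal additionally needs an EGF-CFC co-receptor such as Cripto. The type I receptor then phosphorylates SMAD2 and SMAD3, which enter the nucleus with SMAD4 and act with DNA-binding partners such as FOXH1. Nodal and the Lefty genes are themselves targets of the pathway, so it contains a positive and a negative feedback arm. Epiblast stem cells depend on Activin or Nodal signaling, and mouse embryonic stem cells do not need it for self-renewal.

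Promoter-capture Hi-C (PCHi-C), which finds the restriction fragments that lie close to baited promoters, and RNA-seq were compared in 3 kinds of mouse cell. WT embryonic stem cells (ESCs) were the E14Tg2a line, and Nanog-/- ESCs were RCNβH-B(t), 1 clone derived from that line. Both were grown on gelatin with 15% fetal bovine serum and LIF at 1000 U/ml, and the Nanog-/- cells were expanded with hygromycin at 25 µg/ml. Epiblast stem cells (EpiSCs) were an embryo-derived line on fibronectin at 10 µg/ml in serum-free N2B27 medium with bFGF at 12 ng/ml and Activin A at 20 ng/ml. A ligand of the pathway was therefore added to the EpiSC medium and not to the ESC media. Cell state, medium and line origin cannot be told apart in the comparison with EpiSCs. The labels call all samples C57BL/6, whereas the growth protocol names other strains of origin.

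The RNA-seq labels name 3 WT ESC, 4 EpiSC and 3 Nanog-/- ESC samples, and the PCHi-C labels name 5, 2 and 5 sequencing lanes. The levels in the expression table are the median of each group, in reads scaled to gene length and library size (RPKM), with no value per sample, so no error, test or depth per sample was computed. Each contact list combines 2 biological replicates, and replicate spread could not be measured there either. The lists held 100492 different contacts in WT ESCs, 87369 in EpiSCs and 74931 in the Nanog-/- line, with 2177284, 1651286 and 1438555 listed reads. Each listed contact has a CHiCAGO score of at least 5, which measures how far its reads exceed the background for that distance. A contact that is missing from a list did not reach this score, and its reads are not given.

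The typical gene had an RPKM 1.89 times as high in EpiSCs as in WT ESCs (9077 genes at 1 RPKM or more in both), a shift of 0.91 on the log2 scale. EpiSC levels were therefore divided by this ratio, and the result without this scaling is also given where it changes the direction or the 2-fold call of a gene that is named. The corresponding ratio of Nanog-/- to WT ESCs was 1.05 over 9496 genes, and those values were left unscaled. Differences are on the scale of log2(RPKM + 1). The labels were checked first. Nanog was at 418 RPKM in WT ESCs, at 191 scaled in EpiSCs and at 22.3 in Nanog-/- ESCs. Of the naive ESC markers, 7 were in the table and all 7 were at least 2-fold lower in EpiSCs after scaling. Nanog, 1 of them, was at 361 RPKM as deposited, and the other 6 were also lower without scaling. The 7 had a summed level of 1200 RPKM in WT ESCs, 218 in EpiSCs and 601 in the Nanog-/- line. The 6 primed EpiSC markers summed to 311, 432 and 263 RPKM in the same order. Of these, Fgf5 and Sox3 were at least 2-fold higher in EpiSCs after scaling. Pou3f1 and Zic2 passed 2-fold only without it, and Otx2 and Dnmt3b in neither case. The 5 general pluripotency markers summed to 2323, 1236 and 2372 RPKM, with 2 at least 2-fold lower in EpiSCs after scaling and 1 without it. The 5 primitive streak markers summed to 8.32, 326 and 7.08 RPKM in the same order, and the 9 primitive and visceral endoderm markers to 6.54, 17.5 and 71.9. The 4 fibroblast markers in the table summed to 25.3, 179 and 35.4 RPKM, with none at 0 in any state. The part of these other cell types in the values of the pathway genes was not tested. In bulk samples such as these, a change in the number of cells that express a gene and a change in RNA per cell cannot be told apart.

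The ligand and its antagonists, which share a feedback loop, had different profiles. Nodal stood at 68.7 RPKM in WT ESCs, 64.8 scaled RPKM in EpiSCs and 70 RPKM in the Nanog-/- line. Its level thus hardly differed between states, with differences from WT ESCs of -0.08 in EpiSCs and 0.03 in the Nanog-/- line. As deposited, the EpiSC value was 122 RPKM, a difference of 0.82, so the near equality with EpiSCs rests on the scaling. The study describes Nodal as upregulated in EpiSCs, which is the direction of the deposited values and not of the scaled ones.

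Lefty1, which binds Nodal and its co-receptors and blocks signaling, was at 246 RPKM in WT ESCs, 891 scaled RPKM in EpiSCs and 285 RPKM in the Nanog-/- line. It was 3.62-fold higher in EpiSCs than in WT ESCs, and 1.16-fold higher in Nanog-/- ESCs. In EpiSCs it stood at the 99.8th percentile of the 11066 genes with at least 1 RPKM in any state.

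Lefty2, the neighbouring gene with the same kind of product, differed from WT ESCs in the opposite direction in EpiSCs. Its levels were 180 RPKM in WT ESCs, 26 scaled RPKM in EpiSCs and 319 RPKM in the Nanog-/- line. It was 6.69-fold lower in EpiSCs, a log2 difference of -2.74 that was -1.85 without the scaling. In Nanog-/- ESCs it was 1.77-fold higher, the largest difference of any member in that comparison and still under 2-fold. The order of the paralogs was accordingly Lefty1 above Lefty2 in WT ESCs and EpiSCs, and Lefty2 above Lefty1 in Nanog-/- ESCs. The transcripts are similar. Of the 50-base stretches of the longest Lefty1 transcript, 17.9% also occurred in Lefty2, and 11.6% of those of Lefty2 in Lefty1, so that reads of this length could be divided between them. For 100-base stretches these shares were 4.8% and 3.07%.

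Tdgf1 had the highest level of the 9 genes in WT and Nanog-/- ESCs. It was at 1079 RPKM in WT ESCs, 406 scaled RPKM in EpiSCs and 1254 RPKM in the Nanog-/- line. The scaled EpiSC level was 2.65-fold lower than that of WT ESCs. Without scaling it was 765 RPKM, a log2 difference of -0.49, and the gene was then within 2-fold. Tdgf1 has 2 annotated pseudogenes, and 20.4% of its 50-base stretches and 9.55% of its 100-base stretches also occurred at those loci.

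The receptors and SMADs ranged from 6.06 RPKM, for Smad3, to 35.3 RPKM, for Smad2, both in the Nanog-/- line. Smad3 was at 8.23 RPKM in WT ESCs, 33.5 scaled RPKM in EpiSCs and 6.06 RPKM in the Nanog-/- line, and was thus 3.73-fold higher in EpiSCs than in WT ESCs. Smad2, the other transducer of the same signal, was at 25.9, 26.3 and 35.3 RPKM. The ratio of the transducers consequently differed between the states, with Smad2 above Smad3 in both ESC lines and Smad3 above Smad2 in EpiSCs. This order within EpiSCs does not depend on the scaling.

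Smad7, which competes for the receptor and is induced by the pathway, was at 27.1 RPKM in WT ESCs, 17.9 scaled RPKM in EpiSCs and 20 RPKM in the Nanog-/- line. Its log2 difference in EpiSCs was -0.57 with the scaling and 0.30 without it, so no direction could be given. Acvr1b was at 23.3, 30.1 and 22.4 RPKM and Acvr2b at 21.7, 32.8 and 19.6 RPKM, in the same order of states. Both receptors were within 2-fold after scaling, with log2 differences of 0.36 and 0.57 in EpiSCs, and above it before scaling, with 1.25 and 1.47.

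Of the 9 genes, then, Lefty1 and Smad3 were at least 2-fold higher in EpiSCs than in WT ESCs, Lefty2 and Tdgf1 were at least 2-fold lower, and 5 lay within 2-fold. Over all 11066 genes, 14.8% were higher and 13.7% lower by this measure. In Nanog-/- ESCs none of the 9 passed 2-fold in either direction, where 2.39% of all genes were higher and 1.92% lower, so that a count of 0 among 9 genes is close to the background. The median log2 difference of the 9 genes was 0.03 in both comparisons, beside 0.03 and 0.07 over all genes. Both comparisons use the same WT ESC values.

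**Figure D1:**
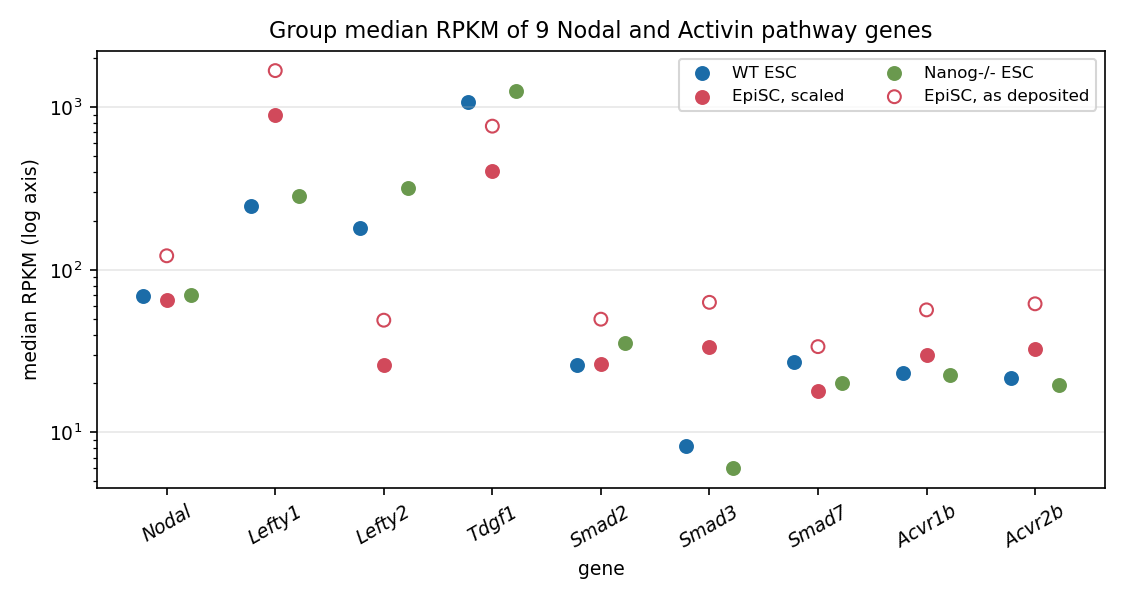
Median RPKM on a log axis of the 9 genes in WT ESCs (3 samples), EpiSCs (4 samples) and Nanog-/- ESCs (3 samples); each point is 1 deposited group median, so there are no error bars, and open circles are EpiSC values before scaling. Lefty1 and Smad3 lie above both ESC lines in EpiSCs, Lefty2 and scaled Tdgf1 lie below them, and Nodal is near 70 in all states only after the EpiSC value is scaled, at 68.7, 64.8 and 70.

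The genes closest in profile were found by distance between the mean-centred log2 levels over the 3 states, among 7975 other genes that reached 10 RPKM. Nodal was most like Slc20a2, Wdr24 and Scyl3, but 3965 genes lay within a distance of 0.5 of it, since a flat profile is common. Lefty1 had 510 genes within that distance, led by Dapk1, Pion and Col6a2. Lefty2 had 35, led by Hpdl, Car13 and 2610528J11Rik, so its profile of low EpiSC and high Nanog-/- levels was the least common of the 3.

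A wider list of 45 pathway genes was also described, of which 40 were in the expression table and 37 passed the filter of 1 RPKM. The list was chosen with earlier results of these data known and includes TGF-beta ligands and receptors. Its counts in either comparison are therefore a description and not a test against all genes. In EpiSCs, 18 were at least 2-fold higher and 4 at least 2-fold lower than in WT ESCs, and the median log2 difference of the 37 was 0.75. Over all 11066 genes, 14.8% were higher and 13.7% lower, with a median of 0.03. Without scaling 27 of the 37 were higher, 1 was lower and 9 lay within 2-fold. Of all 11066 genes, only 5460 lay within 2-fold without scaling, so the unscaled count includes this general shift. The counts were largest among target transcription factors, where 7 of 9 were higher and 1, Nanog, was lower, the latter only with the scaling (log2 differences of -1.12 with it and -0.21 without). T (brachyury), the mesoderm regulator, was at 3.37 RPKM in WT ESCs and 236 scaled RPKM in EpiSCs, a 54.1-fold difference. Foxa2, an endoderm factor, was at 0.831 and 48 RPKM, and the organizer genes Gsc and Lhx1 were at 0.948 and 25.2 and at 0.633 and 20.9 RPKM. Eomes and Mixl1 were 3.87-fold and 3.27-fold higher. These include the primitive streak markers counted above. Otx2 was at 39.5 and 41.4 RPKM.

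Among secreted regulators, Cer1, an antagonist of Nodal, was at 1.42 RPKM in WT ESCs, 124 scaled RPKM in EpiSCs and listed at 0 in Nanog-/- ESCs. Fst (follistatin), which binds Activin, was at 2.6 RPKM in WT ESCs and 40.9 in EpiSCs, and Cfc1, the second EGF-CFC co-receptor, at 2.32 and 14.6. The convertases that process the Nodal precursor differed in direction, with Furin 2.65-fold higher and Pcsk6 4.71-fold lower in EpiSCs. Tgfb1, Tgfb2 and Tgfb3 were 4-fold, 15.1-fold and 5.69-fold higher, and the receptors Tgfbr2 and Tgfbr3 were 5.76-fold and 6.38-fold higher. The ligand genes Gdf1 and Inhbb (Activin βB) were 3.31-fold and 2.17-fold lower after scaling. Without it their log2 differences were -0.99 and -0.34, and neither passed 2-fold. The 12 measured SMADs and SMAD partners had the smallest median log2 difference of the 5 classes, 0.18, with Zfyve9 and the feedback gene Pmepa1 2.13-fold and 2.88-fold higher and 10 within 2-fold. Without scaling 5 of the 12 lay within 2-fold, and Smad4, Smad6, Drap1, Smurf1 and Smurf2 joined the higher genes with log2 differences of 1.58, 1.19, 1.03, 1.12 and 1.37.

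In Nanog-/- ESCs, 1 of the 37 genes of the wider list was at least 2-fold higher and 5 were at least 2-fold lower. Over all 11066 genes, 2.39% were higher and 1.92% lower. Nanog, 1 of the 5, is the gene deleted in these cells, so its lower level was set by the genotype. Inhba (Activin βA) was at 12.8 RPKM against 3.9 in WT ESCs. The lower genes were Nanog itself, Inhbb at 3.11 against 10.3 RPKM, Cer1, Cfc1 at 0.5 against 2.32 RPKM and T at 1.14 against 3.37 RPKM. With a pseudocount of 0.1 in place of 1 the counts were 4 higher and 8 lower, since most of these genes are near 1 RPKM. The endoderm marker list and the pathway list were chosen with no gene in common, so the higher endoderm markers could include none of the latter. Foxa2, the endoderm factor in the pathway list, was at 2.54 RPKM in Nanog-/- ESCs against 0.831 in WT ESCs, a log2 difference of 0.95.

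**Figure D2:**
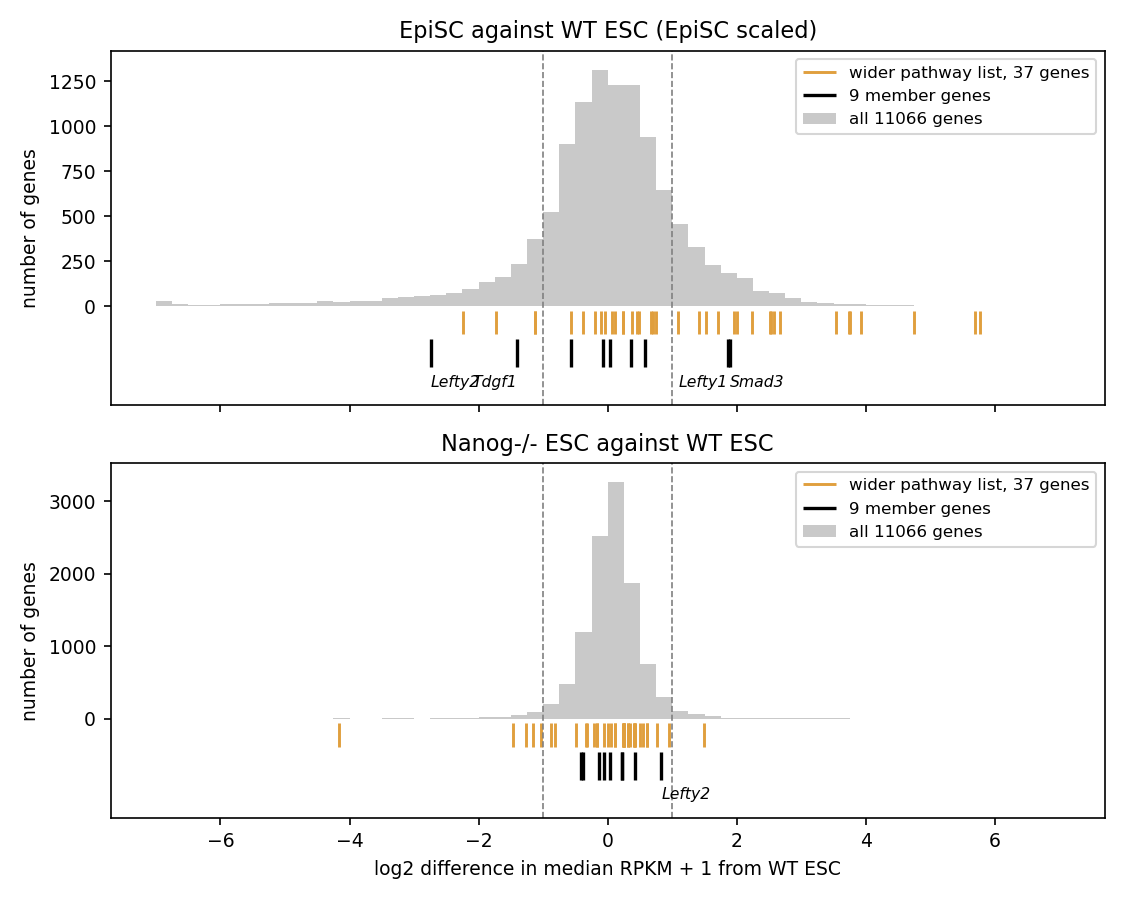
Histogram of the log2 difference in median RPKM + 1 from WT ESCs for 11066 genes (grey; values beyond 7 are placed in the end bins), with ticks for the 37 genes of the wider pathway list (orange) and the 9 member genes (black); dashed lines mark 2-fold. In EpiSCs 18 orange ticks lie above 2-fold and 4 below, and in Nanog-/- ESCs all 9 black ticks lie within 2-fold.

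The promoter contacts of the 9 baits were examined next, with the DNA at the fragments the results turn on shown first. Both ends of all 88330 listed fragments are HindIII sites in the GRCm38 sequence, so the coordinates and this genome share a build. RefSeq promoters (GRCm38.p6) were matched for 5 of the 10 genes: Nodal, Tdgf1, Smad3, Acvr1b and Acvr2b. The Nodal promoter is shown because the restriction site, in capitals, lies at the start of the gene. The bait, chr10:61415457-61417972, ends at the annotated start, 61417972, and therefore holds upstream DNA only.
Nodal, chr10:61417722-61418021, + strand: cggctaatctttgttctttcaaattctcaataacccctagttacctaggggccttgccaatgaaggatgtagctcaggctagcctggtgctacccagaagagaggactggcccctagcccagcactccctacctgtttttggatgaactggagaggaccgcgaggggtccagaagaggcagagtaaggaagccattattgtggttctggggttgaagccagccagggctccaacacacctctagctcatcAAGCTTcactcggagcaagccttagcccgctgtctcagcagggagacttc

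Motifs were searched by their letters on both strands: AATCCACA and AATACACA for FOXH1, GTCTAGAC and CAGAC for SMADs and ATGCAAAT for the octamer. A composite OCT4-SOX2 motif, which can overlap the octamer, and a CTCF core motif were also searched. None of the 5 promoters held any of these except CAGAC, which occurred once each in those of Tdgf1 and Acvr2b and in 49.6% of all 32851 promoters. Of 300-base windows tiled over all listed fragments, 1.17% held AATCCACA, 1.79% AATACACA, 0.268% GTCTAGAC, 0.0233% the OCT4-SOX2 motif, 1.51% the octamer and 1.03% the CTCF motif. The matches are described only as letters, and binding was not examined. Repeat sequence was not set apart in the search, so a match may lie in a repeat.

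Among the 7 baits and 52 partner fragments searched, the window with most matches, the common CAGAC left out, lay in the Lefty2 bait, centred 4.2 kb upstream of the Lefty2 start. Because it was picked for its matches, the shares of single windows above do not measure its rarity. Of the 52 partner fragments, 4 held AATCCACA and 1 held the OCT4-SOX2 motif. That 1 is the Lefty2 bait, the longest of the 7 baits at 14528 bases. This bait was also a partner of the Lefty1 bait in WT ESCs, and it is 1 of the fragments that the study assigns to ESC super-enhancers. The capitals mark 1 match of the OCT4-SOX2 motif followed by 2 of AATCCACA. Matches of CAGAC are not marked in the sequences printed here.
Lefty2 bait, chr1:180888756-180889055, + strand: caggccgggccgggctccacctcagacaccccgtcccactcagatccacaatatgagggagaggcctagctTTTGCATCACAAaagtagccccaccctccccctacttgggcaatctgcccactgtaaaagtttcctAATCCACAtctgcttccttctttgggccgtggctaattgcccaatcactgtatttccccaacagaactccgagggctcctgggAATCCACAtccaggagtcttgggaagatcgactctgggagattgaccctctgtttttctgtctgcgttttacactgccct

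The second window comes from the intergenic fragment with the most reads to the Lefty2 bait in all 3 lists, 6.76 kb downstream of the Lefty2 start, with its CTCF match in capitals.
Lefty2 downstream, chr1:180899716-180900015, + strand: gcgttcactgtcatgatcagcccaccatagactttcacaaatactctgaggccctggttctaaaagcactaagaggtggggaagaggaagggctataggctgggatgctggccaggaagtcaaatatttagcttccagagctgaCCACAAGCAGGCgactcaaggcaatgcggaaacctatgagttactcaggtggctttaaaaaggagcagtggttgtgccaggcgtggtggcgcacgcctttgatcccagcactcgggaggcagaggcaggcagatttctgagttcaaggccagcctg

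The third comes from an intergenic fragment 89.2 kb from the Smad3 bait that was listed in Nanog-/- ESCs only. Of its 11609 bases, the window holds 2 of 3 matches of AATCCACA, in reverse orientation and in capitals.
Smad3 upstream, chr9:63847494-63847793, + strand: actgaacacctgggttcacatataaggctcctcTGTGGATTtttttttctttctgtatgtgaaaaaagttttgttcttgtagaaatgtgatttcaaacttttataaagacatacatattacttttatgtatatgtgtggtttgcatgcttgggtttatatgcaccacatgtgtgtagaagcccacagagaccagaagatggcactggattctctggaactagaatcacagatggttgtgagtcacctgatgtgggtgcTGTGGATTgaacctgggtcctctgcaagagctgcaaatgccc

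The 9 baits had 31 different contacts in WT ESCs, 34 in EpiSCs and 31 in the Nanog-/- line, or 66 over the lists. The contact between Lefty1 and Lefty2 belongs to both baits and was counted once. Of the 66, 8 were in all lists (12.1%, beside 14.4% of all 174253 contacts), 13 (19.7%) in WT ESCs only, 17 (25.8%) in EpiSCs only and 14 (21.2%) in the Nanog-/- line only. Over all contacts these shares were 25.1%, 23.4% and 15%. Of the 31 WT ESC contacts, 13 were also listed in EpiSCs, a share of 41.9% (exact binomial 95% interval 24.5 to 60.9), beside 39.6% of all WT ESC contacts. The share also listed in Nanog-/- ESCs was 41.9% as well, beside 41.8% of all. Over all scores, the 9 baits were thus close to the background in the share of contacts they kept. In EpiSCs the share depended on the score. Of the 14 WT ESC contacts scored from 5 to under 6, 0 were also listed in EpiSCs (interval 0 to 23.2%), beside 23.3% of all such contacts. At a score of at least 7 in WT ESCs, 12 of 13 were also listed in EpiSCs (92.3%, beside 57.8% of all such contacts) and 7 of 13 in Nanog-/- ESCs (53.8%, beside 60.4%). Most of these 13 contacts belong to the neighbouring Lefty1 and Lefty2 baits, so both shares rest largely on this region. The Lefty1 bait had no listed contact in Nanog-/- ESCs. Intervals here cover counting error only, and PCR duplicates or combined replicates may widen them.

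The median distance between fragment midpoints was 66.3 kb in WT ESCs (order-statistic 95% interval 16.8 to 213), 58.1 kb in EpiSCs (12.9 to 128) and 15.5 kb in the Nanog-/- line (10.6 to 63.6). Over all contacts it was 139, 141 and 74.1 kb, and the first of these lies within the interval of the 9 baits. Of the 31 Nanog-/- contacts, 10 were those of the Acvr1b bait, with a median distance of 10.9 kb. The Nanog-/- median therefore rests heavily on 1 bait. Contacts of 1 bait are not independent, and the intervals treat them as if they were. A baited promoter was at the other end of 51.6% of them in WT ESCs, 38.2% in EpiSCs and 22.6% in the Nanog-/- line, beside 23.1%, 18.4% and 22% of all contacts. Contacts listed in both WT ESCs and another state had a median ratio of reads of 0.833 in EpiSCs and 0.619 in the Nanog-/- line over all baits, and ratios below are relative to these values.

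**Figure D3:**
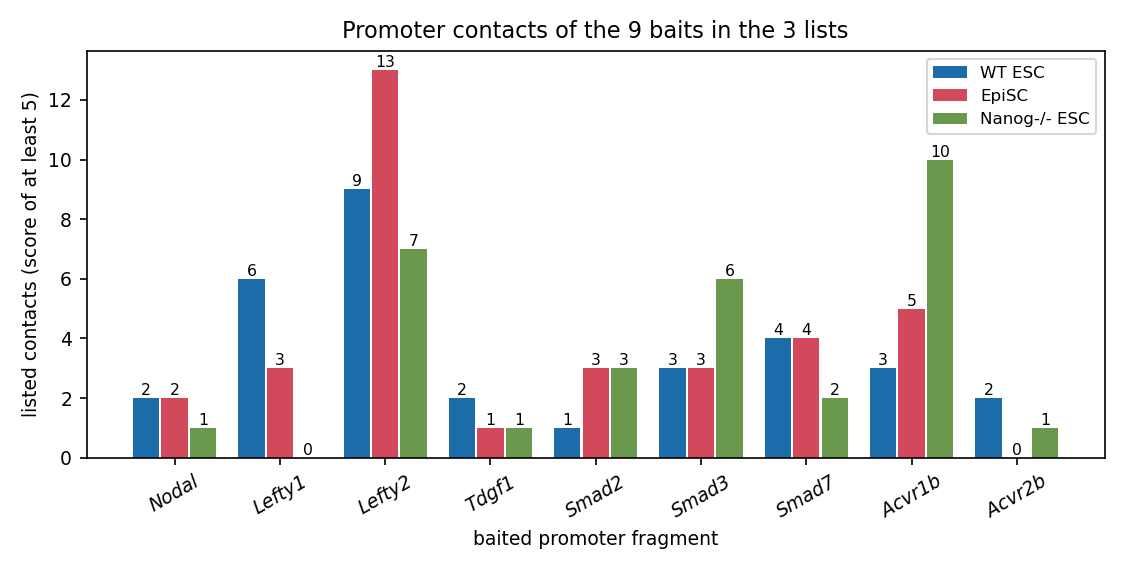
Number of different contacts with a score of at least 5 for each of the 9 baited promoter fragments in the WT ESC, EpiSC and Nanog-/- ESC lists. The Lefty1 bait had 6, 3 and 0 contacts, the Lefty2 bait 9, 13 and 7, and the Acvr1b bait 3, 5 and 10.

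The Nodal bait had few contacts, 2 in WT ESCs, 2 in EpiSCs and 1 in the Nanog-/- line, and 72.6% of all baits had as many or more in WT ESCs. All 4 partner fragments lay upstream. The fragment baited as AC123530.1, which holds an exon of Adamts14, was 213 kb away and was listed in WT ESCs with 10 reads (Poisson 95% interval 4.8 to 18.4) at a score of 9.08 and in EpiSCs with 8 reads (3.45 to 15.8) at 7.5. The relative ratio of these reads was 0.96, with an interval of 0.329 to 2.7. A fragment baited as X99384, with an exon of Pald1, was listed only in WT ESCs, 30.5 kb away with 23 reads at 5.75.

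In EpiSCs, the second Nodal contact was an intergenic fragment, chr10:61411427-61413667, only 4.17 kb from the bait midpoint, with 87 reads (69.7 to 107) at 5.42. The study reports that Nodal gains a contact with a pluripotent-specific enhancer in EpiSCs. Whether this fragment holds that enhancer was not tested. The Adamts14 fragment, 151 kb away, was listed in Nanog-/- ESCs alone, with 6 reads at 5.58. Except for the fragment in both lists, the scores were between 5.42 and 5.75 and so near the limit of 5. The neighbouring AC123530.1 bait itself had 21, 14 and 22 contacts in the 3 lists.

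The Lefty genes lie 46.2 kb apart on chromosome 1, bait midpoint to bait midpoint, with Tmem63a beyond Lefty1. The Lefty1 bait, chr1:180931763-180939037, had 6 contacts in WT ESCs, 3 in EpiSCs and none in Nanog-/- ESCs. Its strongest partner was the promoter of Tmem63a, 7.03 kb away, with 91 reads at a score of 26.77 in WT ESCs and 52 reads at 37.59 in EpiSCs. The fragment baited as 2210411M09Rik, 16.8 kb away in Tmem63a, had 24 reads at 10.31 and 10 reads at 9.38. Both were listed in WT ESCs and EpiSCs.

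The contacts of Lefty1 listed in WT ESCs only were Lefty2 with 9 reads at 6.35, Cnih4 at 217 kb with 5 reads at 7.03, and Psen2 at 673 kb with 3 reads (0.619 to 8.77) at 5.76. Their read counts were too low for a comparison of states. In Nanog-/- ESCs no contact of Lefty1 was listed, while neighbouring baits had contacts there. The Tmem63a bait had 8, 12 and 7 contacts in WT ESCs, EpiSCs and Nanog-/- ESCs, and the 2210411M09Rik bait 7, 13 and 5. Of all 19022 baits, 14215 had a contact in the Nanog-/- list and 17063 in the WT list. The Lefty1 level was meanwhile 246 RPKM in WT and 285 in the Nanog-/- line.

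The Lefty2 bait, chr1:180881971-180896498, had the most contacts of the 9 in WT ESCs and EpiSCs, with 9 and 13, and 7 in the Nanog-/- line. In EpiSCs 11.8% of all baits had as many or more. A run of 3 fragments from 9.93 to 12.9 kb downstream, starting at the end of Lefty2, was in every list. The second of these, chr1:180899381-180900333, whose CTCF window is printed above, had 197 reads (170 to 227) at a score of 32.52 in WT ESCs, 115 (94.9 to 138) at 29.89 in EpiSCs and 102 (83.2 to 124) at 30.37 in Nanog-/- ESCs. Relative to the usual read ratios, its reads in EpiSCs were 0.701 of those in WT ESCs (0.552 to 0.886) and in Nanog-/- ESCs 0.836 (0.652 to 1.07). The contact was therefore listed at scores near 30 in EpiSCs, where the Lefty2 level was 26 RPKM, and in Nanog-/- ESCs, where it was 319 RPKM.

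The Tmem63a promoter, 53.2 kb away, was also in all lists, with 24, 13 and 13 reads. Further out the lists differed. In EpiSCs only, 4 adjoining fragments of Tmem63a from 62.9 to 80.6 kb were listed, with 15, 9, 10 and 8 reads and scores of 5.23 to 8.22. EpiSCs also had contacts with an exon of Ephx1 at 128 kb and with intergenic fragments at 186 and 187 kb, with 5 to 7 reads each. An intron of Ephx1 at 102 kb was listed in WT and Nanog-/- ESCs with 12 and 9 reads. The longest contact of any of the 9 baits joined Lefty2 with an intron of Dnah14, at 918 kb in WT ESCs, with 4 reads (1.09 to 10.2) at 5.07. The baited neighbour Tmem63a was at 32.3 scaled RPKM in EpiSCs and 6.41 RPKM in the Nanog-/- line, with log2 differences from WT ESCs of 1.46 and -0.70.

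**Figure D4:**
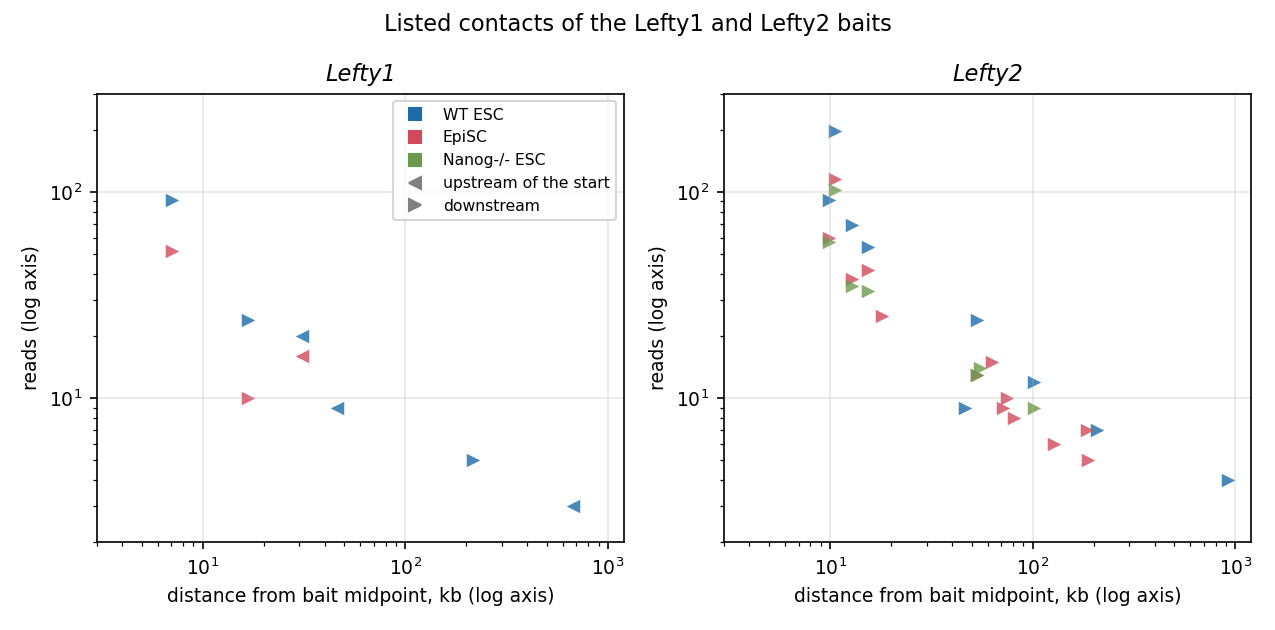
Reads of each listed contact of the Lefty1 bait (left) and the Lefty2 bait (right) against the distance between bait and partner midpoints in kb, both on log axes; colours are the 3 lists and triangles point to the side of the start the partner is on. Lefty1 has no Nanog-/- ESC point, whereas the Lefty2 contacts between 9.93 and 12.9 kb have a point for each list.

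Tdgf1 kept its main contact in all lists. The partner was the Lrrc2 promoter, 8.36 kb away on a fragment assigned to an ESC super-enhancer, with 38 reads at 10.06 in WT ESCs, 40 at 7.91 in EpiSCs and 19 at 8.22 in Nanog-/- ESCs. Relative ratios to WT ESCs were 1.26 (0.79 to 2.02) and 0.808 (0.44 to 1.44), both with intervals that include 1. Lrrc2 expression was 0.692 scaled RPKM in EpiSCs and 21.5 RPKM in the Nanog-/- line, with log2 differences of -4.19 and -0.46. A contact with the Rtp3 promoter, 43.7 kb away, was listed in WT ESCs only, with 9 reads.

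For Smad3, the contact with the highest score in WT ESCs was the promoter of Skor1, a SKI-family corepressor gene, 604 kb away. It was listed in all 3 states, with 10 reads at 11.09, 5 at 5.12 and 6 at 7.19. The 2 adjoining Skor1 fragments at 609 and 612 kb were listed in both ESC lines with 8 and 6 reads each. The RNA of Skor1 was 0.0457 scaled RPKM in EpiSCs and 0.298 RPKM in the Nanog-/- line. A contact with an intron of Smad3 itself, at 93.8 kb, was listed in EpiSCs with 20 reads at 6.14 and in Nanog-/- ESCs with 17 reads at 8.06. The Iqch promoter, on a fragment that also holds an exon of Aagab at 151 kb, was listed in EpiSCs only, with 22 reads (13.8 to 33.3) at 8.01. Upstream fragments at 68.7 and 89.2 kb, the latter with the FOXH1 window printed above, were listed in Nanog-/- ESCs only, with 16 and 14 reads at 5.57 and 5.69.

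The Smad2 and Smad7 baits lie on chromosome 18, whose sequence was not searched for motifs. Smad2 contacts lay in its own introns, 6.62 to 14.7 kb from the bait, with 1 such fragment listed in WT ESCs, 3 in EpiSCs and 2 in the Nanog-/- line. A further Nanog-/- contact joined Smad2 to an exon of Skor2, the paralog of Skor1, at 620 kb with 5 reads at 5.09. Smad7 had its highest score in each list with a fragment of its own gene at 8.39 kb, with 164 reads at 17.06 in WT ESCs, 114 at 14.62 in EpiSCs and 112 at 20.5 in Nanog-/- ESCs. Introns of Ctif at 152 and 233 kb were listed in WT ESCs only, and introns of Dym at 177 and 219 kb and of Ctif at 101 kb in EpiSCs only, all with 8 to 10 reads.

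The receptor genes showed different counts. Acvr1b had 3 contacts in WT ESCs, 5 in EpiSCs and 10 in the Nanog-/- line, and in the last list 16% of all baits had as many or more. Of these 10, 9 lay within 30 kb, at 5.38 to 29.8 kb on both sides of the bait, with 22 to 128 reads and scores of 5.39 to 8.58. The WT ESC list held none within 60 kb, and the EpiSC list 2, at 6.54 and 7.91 kb with 176 and 135 reads. A promoter contact with Slc4a8 at 414 kb was in WT ESCs with 6 reads at 8.57 and in EpiSCs with 5 reads at 7.58. Acvr1b levels over the same states were 23.3, 30.1 and 22.4 RPKM. Over all baits, 30462 of 74931 Nanog-/- contacts were under 50 kb, beside 24125 of 100492 in WT ESCs, and the part of this difference between the lists in the Acvr1b counts was not tested.

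Acvr2b had 2 contacts in WT ESCs, none in EpiSCs and 1 in the Nanog-/- line. The WT partners were the promoters of Oxsr1, 78.4 kb away with 20 reads at 5.41, and of Plcd1, 308 kb away with 9 reads at 5.78. The Nanog-/- partner was an intron of Acvr2b at 15.2 kb, with 27 reads at 5.45. All 3 scores were close to the limit of the lists.

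**Figure D5:**
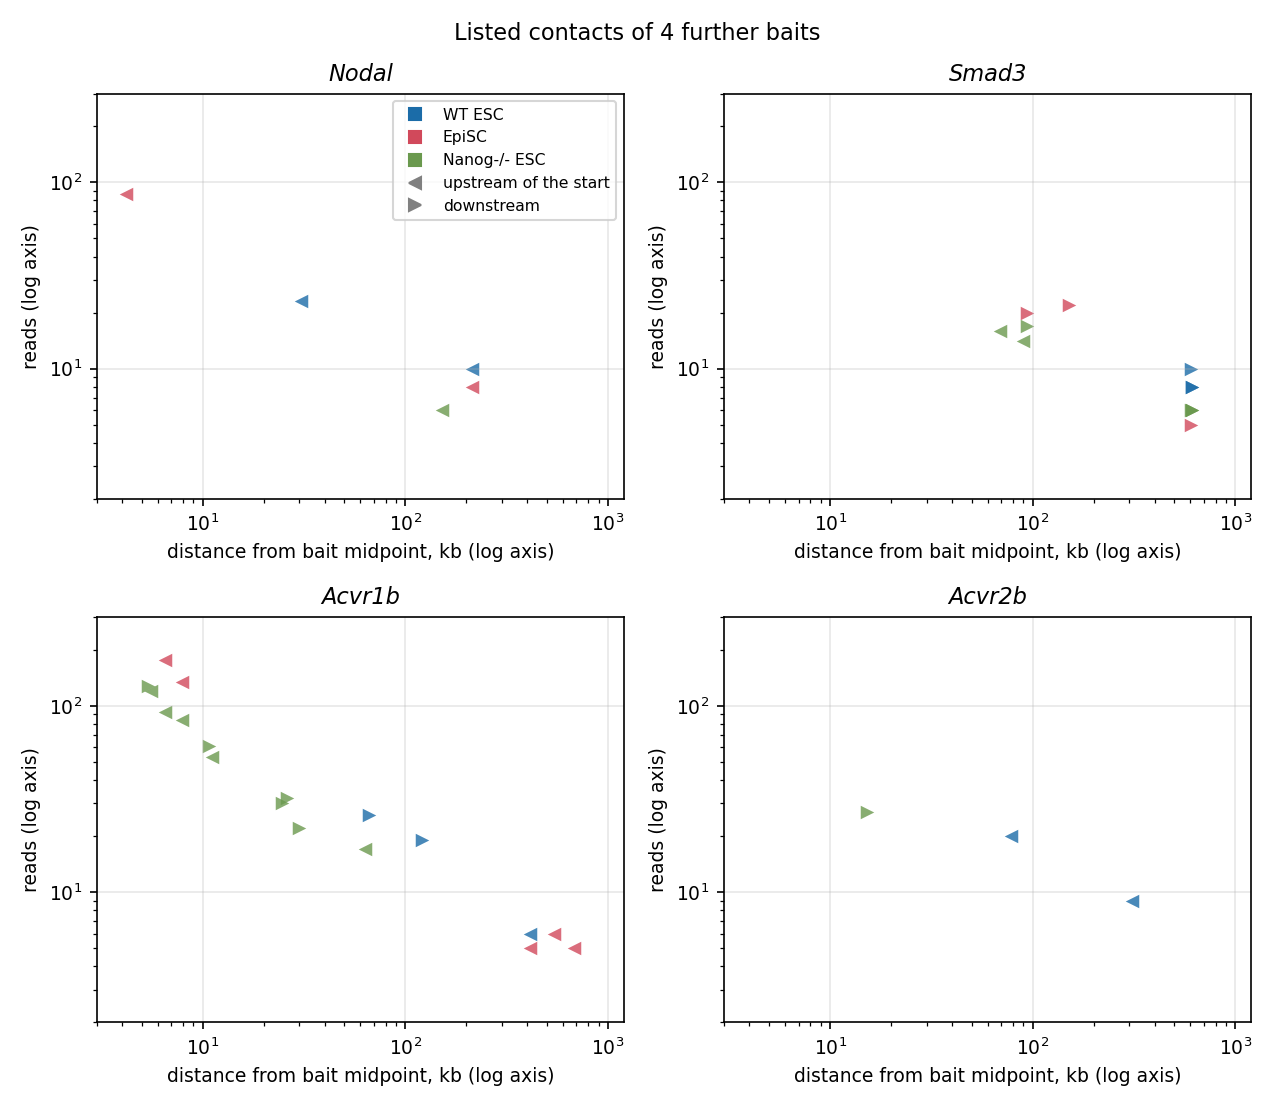
Reads of each listed contact of the Nodal, Smad3, Acvr1b and Acvr2b baits against the distance between bait and partner midpoints in kb, both on log axes; colours are the 3 lists and triangles point to the side of the start the partner is on. Acvr1b has 9 Nanog-/- ESC points under 30 kb and no WT ESC point there, and the Smad3 contacts near 604 kb are present for all lists.

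The baits of the wider pathway list, 40 fragments, had 239 contacts in WT ESCs, 236 in EpiSCs and 145 in the Nanog-/- line. Of the WT contacts, 37.7% (31.5 to 44.1) were also listed in EpiSCs and 36% (29.9 to 42.4) in Nanog-/- ESCs, beside 39.6% and 41.8% of all contacts. Of the 9 baits described here, those of Lefty1, Lefty2 and Smad7 lie on fragments assigned to ESC super-enhancers. The share of all baits on such fragments was not computed, so whether this count differs from it was not tested.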

How the data were processed

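PCHi-C, RNA-seq and ChIP-seq samples are labelled in the series, and the 4 EpiSC ChIP-seq samples were not analysed here. By the study's methods and the submitters' processing notes, PCHi-C reads were mapped with HiCUP and Bowtie 1.1.0 to GRCm38/mm10, and CHiCAGO scored contacts of HindIII fragments. The authors deposited 1 list per state with the count of reads and the score of each contact, replicates combined. Trim Galore, TopHat and DESeq2 are named without versions. The deposited RPKM are group medians made by the authors. The authors' own fold changes and p-values, also in that table, were not used.

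Here, each contact was a pair of fragments, and where both of its ends were baits that listed it, it entered once, at the higher score (Python 3.11.15, pandas 2.3.3, scipy 1.17.1). Genes with 1 RPKM in any state were kept, a pseudocount of 1 was added, and 2-fold was the call. All members, 45 wider pathway genes counted whole, the 3 most alike genes, the highest-scoring contact of each bait and state and all contacts of baits with 5 or fewer were named by rule; further contacts were named after their values were seen. The members and lists were chosen with earlier results of these data known. The steps were tested on simulated data. Super-enhancer fragments are those of the study's supplement. Exons and introns are those of GENCODE protein-coding genes. The expression column named BT12 was taken as Nanog-/- ESCs from the series' design text. Alternatives were scaling, pseudocount, filter, fold, score and distance. Some genes of the wider list and some partner fragments are not reported here by name.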

Additional observations from a re-analysis of the deposited data

How the results depend on the processing

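No paired analysis was possible because the deposited expression values are group medians and the contact lists combine the replicates; for the same reason no replicate could be left out. Counts were taken as changed when they moved by more than 1.5 times. No member past 2-fold changed direction without scaling, but among members within 2-fold Nodal turned from -0.08 to 0.82 and Smad7 from -0.57 to 0.30 (log2) in EpiSCs without scaling, and Nodal from 0.03 to -0.04 in Nanog-/- ESCs with it. Without scaling, 4 member genes were higher and 1 lower in EpiSCs (Acvr1b and Acvr2b joined, Tdgf1 left), and 1 wider pathway gene was lower. With a threshold of 1.5-fold, 1 member (Lefty2) and 5 wider genes were higher in Nanog-/- ESCs, and with a pseudocount of 0.1 wider genes numbered 4 higher and 8 lower. With scores of at least 7, the member baits had 13 contacts in WT ESCs, 16 in EpiSCs and 17 in the Nanog-/- line, and 92.3% of the WT contacts were also in EpiSCs. Most of those WT contacts belong to the Lefty1 and Lefty2 baits. Measured between nearest fragment ends, the median distance in Nanog-/- ESCs was 8.25 kb. In WT ESCs and EpiSCs more contacts scored under 7 than above, and most beyond 100 kb had 10 reads or fewer. The lists give no reads for a pair that did not reach the score, so whether a contact missing from a list was absent or below this limit was not tested.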
